A study of Mus musculus with 12 samples.

Results

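The collagen genes were described in the livers of mice that lack Lcorl, a gene that encodes a nuclear relative of the corepressor Lcor. They were taken as the gene symbols made of Col, a type number, the letter a and a chain number, with a mean of at least 10 normalized counts over the 12 livers. Of 44 such symbols among 17714 genes, 36 reached that level: 11 chains of fibrillar collagens, 6 of the basement membrane, 4 of the beaded filament (type VI) and 15 others. The 12 livers came from female mice of 3 weeks, the age of weaning, killed around 10 am. They were 6 Lcorl knockout (KO) mice, in which the gene was deleted throughout the body, and 6 wild-type (WT) mice, and the labels name no other allele or treatment for either group. The sources used here do not give the strain or how the allele was made. KO libraries held 27692285 to 31296485 reads and WT libraries 21769795 to 28655120. Lcorl itself gave 3 reads in the 6 KO livers together and 1594 in the 6 WT livers.

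Collagens are secreted proteins of 3 chains wound into a triple helix. Fibrillar collagens (types I, III and V among them) form the fibres of portal tracts, vessels and capsule, type IV forms the network of basement membranes, and type VI forms beaded filaments beside cells. Chains are hydroxylated and folded in the endoplasmic reticulum with the chaperone Serpinh1, trimmed outside the cell and cross-linked by lysyl oxidases. In the liver most chains are made by stellate cells and portal fibroblasts, while Col18a1, whose end fragment is endostatin, is also made by hepatocytes. In whole liver, fewer cells of a type and less RNA per cell cannot be told apart.

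Expression of 4 collagen genes, Col4a3, Col4a4, Col15a1 and Col6a2, was lower in KO livers. Their start regions are given from GRCm38, 5′ to 3′ on the strand named, since Col4a3 and Col4a4 share 1 of them. Starts are those of RefSeq (GRCm38.p6) and, for Col4a3, the outermost start of GENCODE M21. The first sequence is the whole stretch of 71 bases between Col4a4 (minus strand) and Col4a3 (plus strand), chr1:82586850-82586920, given on the plus strand. The second is the 250 bases before the Col15a1 start, chr4:47207762-47208011, plus strand. The last is the 250 bases before the outer of the Col6a2 starts, chr10:76623631-76623880, minus strand. Capitals mark the motif GGGCGG read on either strand.
Col4a4-Col4a3: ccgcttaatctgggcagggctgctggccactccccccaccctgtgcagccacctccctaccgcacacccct
Col15a1: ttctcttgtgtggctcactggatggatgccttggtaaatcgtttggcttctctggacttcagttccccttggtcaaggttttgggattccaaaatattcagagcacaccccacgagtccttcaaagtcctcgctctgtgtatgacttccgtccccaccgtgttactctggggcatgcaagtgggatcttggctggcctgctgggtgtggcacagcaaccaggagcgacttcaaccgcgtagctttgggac
Col6a2: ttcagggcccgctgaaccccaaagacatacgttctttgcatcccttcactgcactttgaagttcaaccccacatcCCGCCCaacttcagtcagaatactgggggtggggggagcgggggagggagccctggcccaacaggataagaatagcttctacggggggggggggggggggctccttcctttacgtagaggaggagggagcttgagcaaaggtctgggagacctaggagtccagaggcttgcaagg

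In these stretches and in the 250 bases before all 32851 promoter starts of the RefSeq table, 3 motifs were searched on both strands. They were CCAAT, read on the other strand as ATTGG, then GGGCGG, read on the other strand as CCGCCC, and lastly TATAAA, read on the other strand as TTTATA. The stretch between Col4a4 and Col4a3, with a GC content of 69.0%, held none of the 3, nor did that of Col15a1, and the Col6a2 stretch held 1 CCGCCC. The inner start of Col6a2 in the table, whose 250 bases lie at chr10:76623405-76623654, has 3 matches of GGGCGG on either strand, overlapping ones included. Of the 36 collagen genes, 29 have 32 starts in the table. The motif GGGCGG, on either strand, lay before 19 of these 32 starts (59.4%), against 32.7% of all starts. CCAAT lay before 11 (34.4%), against 33.8% of all, and TATAAA before 3 (9.38%), against 12.4% of all. These are matches of letters, with no test.

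One WT library stood apart in its collagens, and WT 6 has to be known before the comparison. Col2a1, the chain of cartilage fibrils, measured 769 normalized counts in WT 6 and at most 2.35 in each of the other 11 livers, so that 99.4% of its reads came from this library. Col11a1, inside the same fibrils, and Col9a1, on their surface, measured 223 and 148 in WT 6 and at most 7.31 and 6.39 elsewhere. Col8a1, a short-chain collagen of vessel walls and the cornea, measured 659.6 in WT 6 and at most 49.8 in any other liver, and Col11a2 149 in WT 6 and at most 46.2 elsewhere. Acan, the large proteoglycan of cartilage, lay at 285 in WT 6 and at 15.3 or less in the others. Of the 36 collagen genes, 19 were highest of all 12 livers in WT 6. Col2a1, Col11a1, Col9a1, Col4a6 and Col6a5 would have had a mean under 10 without it, and 31 genes would have remained. The part of these transcripts in the WT values was not tested, and the counts, medians and sums by class are given with and without WT 6.

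**Figure D1:**
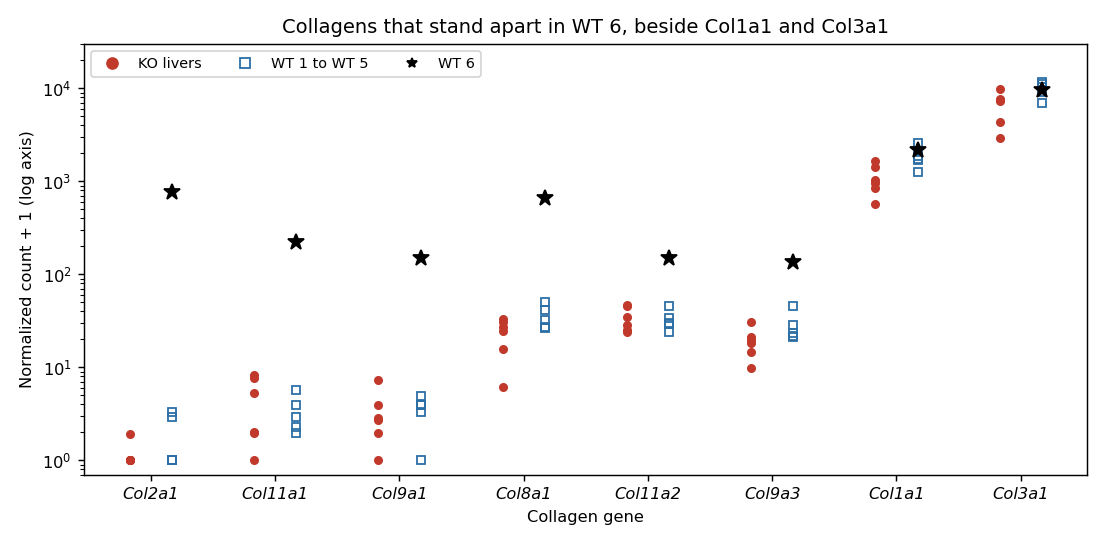
Normalized count + 1 on a log axis for 6 collagen genes that stand apart in WT 6 and for Col1a1 and Col3a1; filled circles are KO livers, open squares WT 1 to WT 5 and the star WT 6. Col2a1 stands at 769 in WT 6 and at most 2.35 elsewhere, while for Col1a1 and Col3a1 WT 6 lies among the other WT livers.

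Levels spanned several orders of magnitude. Per kilobase of exon, Col18a1 was the most abundant at 5249 normalized counts per kb in KO livers and 4751 in WT livers, followed by Col3a1 at 675 in KO and 996 in WT and Col4a1 at 452 in KO and 621 in WT. Col4a2 measured 379 per kb in KO and 469 in WT, Col14a1 289.6 and 409.8, Col1a2 185 and 281, and Col1a1 166 and 287, giving KO before WT. All 36 genes together took 0.217% of the reads in KO livers and 0.243% in WT livers. Col18a1 alone made up 61.3% of the summed collagen counts in KO livers and 50.1% in WT livers, and Col3a1 11.0% in KO and 14.7% in WT. The genes nearest the limit of 10 on the inside were Col4a6 (mean 10.1) and Col6a5 (10.2), and on the outside Col9a2 (9.6) and Col6a6 (6.8). The other symbols under the limit were Col17a1, Col6a4, Col10a1, Col22a1, Col26a1 and Col19a1, and these 8 are not part of the 36.

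**Figure D2:**
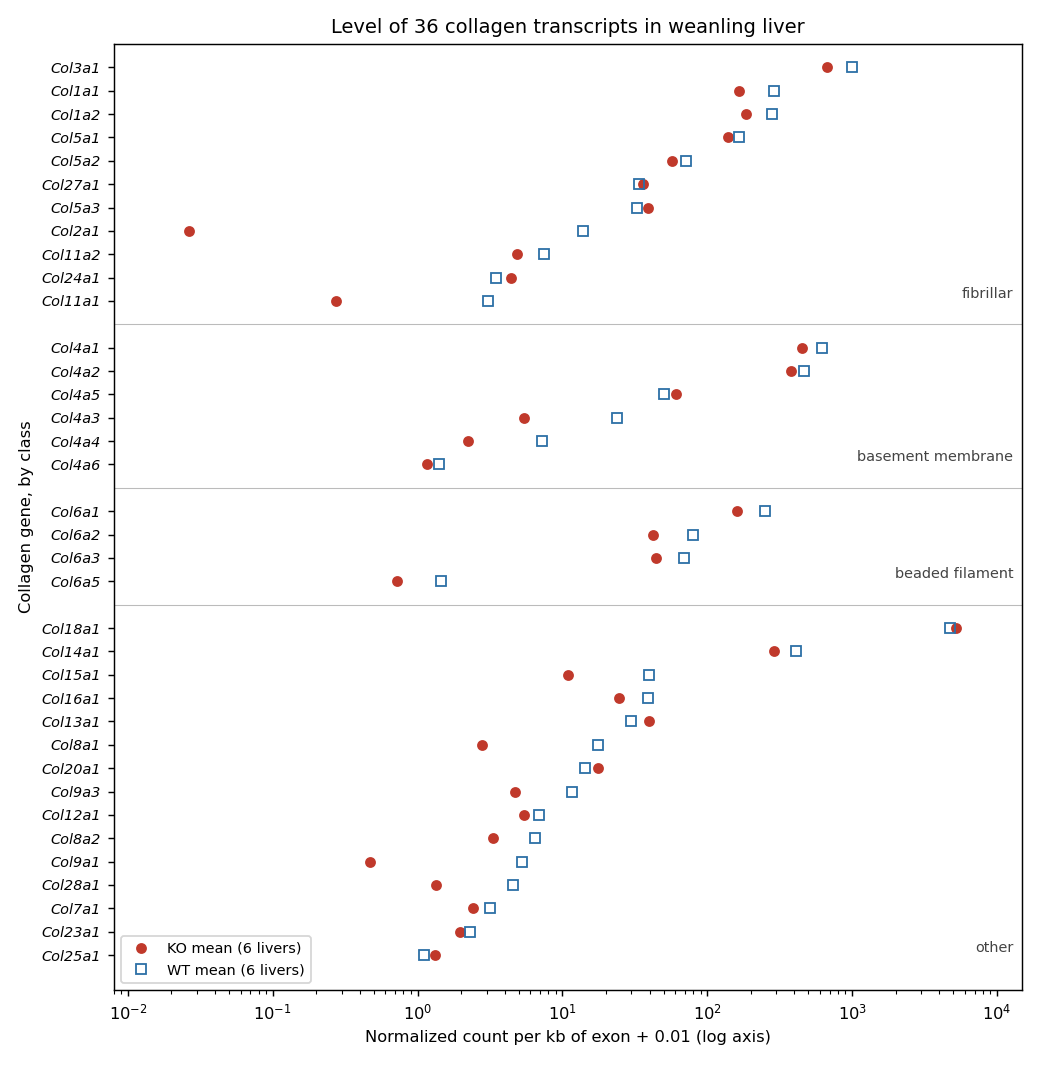
Mean normalized count per kb of exon + 0.01 for each of the 36 collagen genes on a log axis, as filled circles for KO and open squares for WT (6 livers each), ordered by the WT level within the 4 classes. Col18a1 stands highest, at 5249 per kb in KO livers and 4751 in WT livers, while Col4a4 stands at 2.21 in KO livers and 7.26 in WT livers.

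Across the 36 genes, 4 fell in KO livers, none rose and 32 did not pass an adjusted p of 0.05 (limma on log2(normalized count + 1), Benjamini-Hochberg over 13569 genes). Over all genes tested, 2.68% fell and 1.75% rose. The 4 were Col4a3, Col4a4, Col15a1 and Col6a2. No rise was called by edgeR or DESeq2 either (background 1.74% and 3.92%). At an unadjusted limma p under 0.05, 1 gene, Col4a5, was higher, against 1500 of all 13569 genes. The fitted value was below 0 for 28 genes and above 0 for 8, against 48.2% below 0 among all genes tested, and the median log2 fold change was −0.59, against 0.01 for all genes. At an unadjusted p under 0.05, 17 of the 36 lay lower in KO, against 12.4% of all genes. In 3 genes, Col4a3, Col4a4 and Col15a1, all 6 KO livers lay below all 6 WT livers, against 1.66% of all genes. For the 31 collagens that reach 10 also without WT 6, the counts were 4 lower and none higher, and the median was −0.49. With WT 6 left out of the fit, the same 4 genes fell (background 3.91%), and of the 36 the fitted value was below 0 for 25 and above 0 for 11, with a median of −0.49. Collagen genes share cells and livers, so they do not vary independently, and the counts describe these 12 livers.

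The number called depended on the test. edgeR's quasi-likelihood test on the recovered reads called 3 genes lower (background 2.36%), namely Col4a4, Col4a3 and Col15a1. DESeq2 on the same reads called 10 lower (background 4.76%): the 4 named, Col6a1, Col6a3, Col1a1, Col8a2, Col16a1 and Col28a1. The authors' deposited table has the same 10 of the 32 collagen genes to which it gives an adjusted p. Its adjusted p-values are those of this DESeq2 fit (for Col4a4 1.48e-07 in both), so it is not a second test. Without KO 6, limma called 7 (background 4.14%), and with a block term for livers whose animal numbers lie close together it called 3 (background 0.715%), again Col4a3, Col4a4 and Col15a1. In that fit WT 2 and WT 3 form a block without a KO liver, so they do not enter the KO against WT difference.

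**Figure D3:**
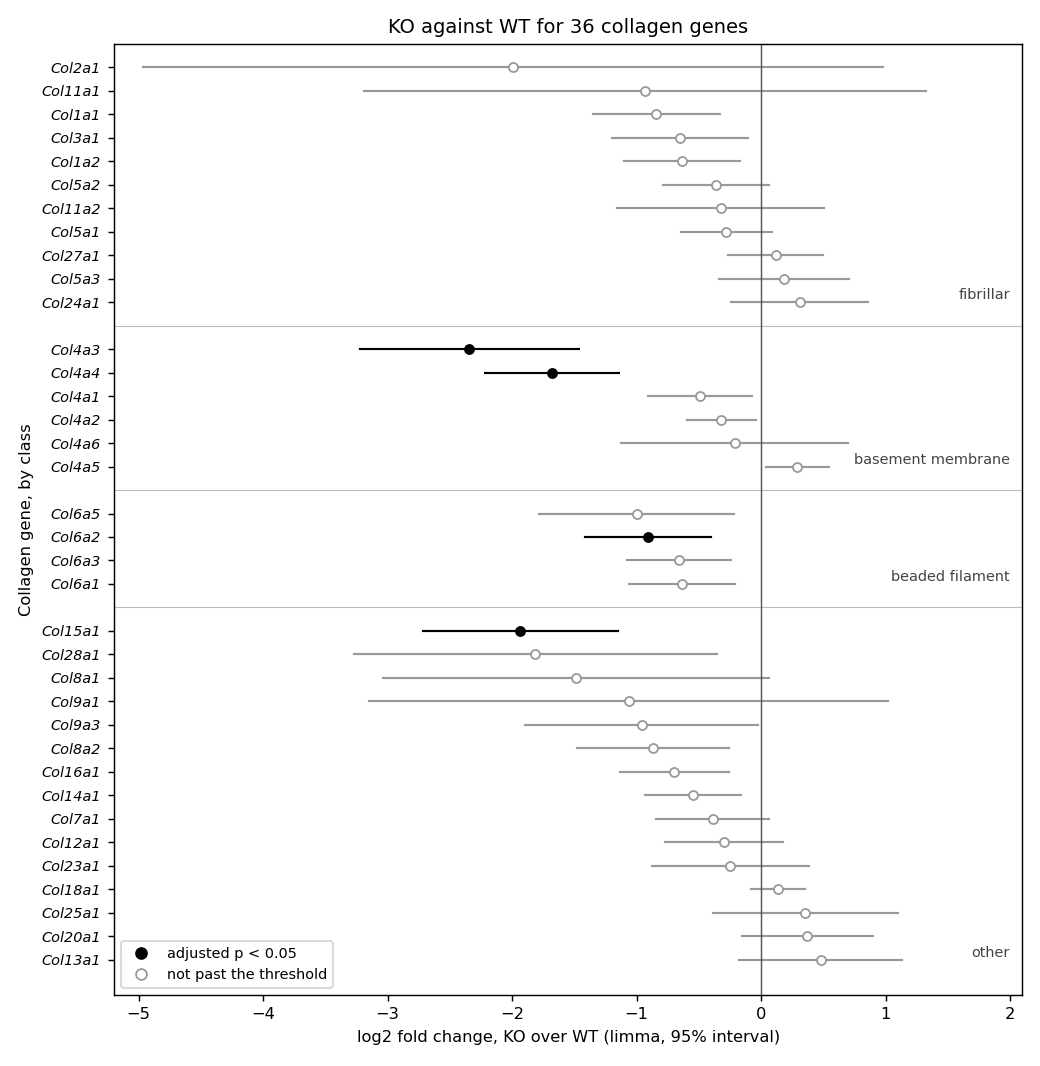
Log2 fold change of KO over WT for the 36 collagen genes with its 95% interval from limma, by class; filled points passed an adjusted p of 0.05. Col4a3 (−2.34), Col15a1 (−1.94), Col4a4 (−1.68) and Col6a2 (−0.91) are filled, and 28 of the 36 points lie left of 0.

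The type IV collagens of the basement membrane split into chains that passed the test and chains that did not. Col4a3 and Col4a4, which with Col4a5 build the network known from the kidney glomerulus, fell in KO livers, while Col4a1 and Col4a2, the chains of most basement membranes, and Col4a5 did not pass the test. Of the 6 chains, 2 fell and none rose in limma (2 and none by edgeR and by DESeq2), with a median log2 fold change of −0.41 (−0.49 and again 2 lower without WT 6). Of all genes, 2.68% fell in limma, 2.36% by edgeR, 4.76% by DESeq2 and 3.91% in limma without WT 6. At an unadjusted limma p under 0.05, 4 of the 6 lay lower, Col4a1 and Col4a2 among them, against 12.4% of all genes. By that measure 1 chain, Col4a5, lay higher. The summed normalized counts of the 6 chains were 6385 ± 1359 in KO and 8400.3 ± 1068 in WT (SD, n = 6 each), most of them from Col4a1 and Col4a2, and 2 KO livers lay below all WT livers. The KO mean was 76.0% of WT, and without WT 6, the lowest WT liver, it was 72.7%, with 5 KO livers below the other WT livers.

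Col4a3 (chromosome 1, 82586921 to 82722059, plus strand) measured 23.8, 19.8, 85.0, 24.1, 74.4 and 99.5 normalized counts in KO 1 to KO 6, against 146, 296, 177, 246, 241 and 312 in WT 1 to WT 6. The groups did not overlap, and within KO, livers 1, 2 and 4 lay below livers 3, 5 and 6. The means were 54.4 ± 35.9 in KO and 236 ± 65.1 in WT (SD, n = 6 each), a 5.08-fold fall (log2 fold change −2.34, SE 0.407, limma adjusted p = 0.00793). Exons of Col4a3 share 563 bases, 5.65% of its exon length, with the antisense transcript C430014B12Rik, and no source used here says whether strand was used in counting, so reads of both may be mixed there.

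Col4a4 (chromosome 1, 82448423 to 82586849, minus strand) lies head to head with Col4a3 across the 71 bases printed above. It measured 15.5, 16.8, 40.0, 23.1, 21.7 and 23.7 normalized counts in KO 1 to KO 6, against 50.6, 105, 62.4, 71.4, 61.5 and 112 in WT 1 to WT 6. Again no KO liver reached the lowest WT liver. The mean was 23.5 ± 8.75 in KO and 77.0 ± 25.1 in WT, a 3.20-fold fall (log2 fold change −1.68, SE 0.249, limma adjusted p = 0.00344). The next genes on either side did not pass the test. Rhbdd1, a rhomboid protease, measured 525 ± 60.7 in KO and 535 ± 49.1 in WT (limma adjusted p = 0.879), and Mff, a mitochondrial fission factor, 889.6 ± 69.1 in KO and 849 ± 69.8 in WT (limma adjusted p = 0.615).

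Set against Col4a5, their partner chain on the X chromosome, both chains shifted in every KO liver. The ratio of normalized counts Col4a3 over Col4a5 ran between 0.0463 and 0.256 in KO and between 0.525 and 0.824 in WT. That of Col4a4 over Col4a5 ran between 0.0302 and 0.103 in KO and between 0.181 and 0.295 in WT, so neither overlapped. Col4a3 over Col4a4 was more scattered in KO, at 1.04 to 4.19, than in WT, at 2.79 to 3.92, and these ranges did overlap. The ratios are given without a test, since the genes were chosen after their values were seen. Col4a3 and Col4a4 were each already separated between the groups, so the separation of their ratios to Col4a5 is not a further result.

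Col4a1 and Col4a2 start head to head on chromosome 8, with 22 exon bases in common. Col4a1 measured 1820.1 to 4565 normalized counts (median 3576) in KO and 3229 to 5333 (median 4819) in WT, and its log2 fold change was −0.49 (SE 0.192, limma adjusted p = 0.148). Col4a2 measured 1705 to 3044 (median 2574) in KO and 2407 to 3427 (median 3208) in WT, with −0.32 (SE 0.128, limma adjusted p = 0.155). In both genes the groups overlapped, with WT 6 as the lowest WT liver and KO 1 as the lowest of all. Col4a5 measured 348 to 515 (median 388) in KO and 259 to 391 (median 338) in WT, with 0.29 (SE 0.117, limma adjusted p = 0.157). Col4a6, its neighbour on the X chromosome, was near the limit of 10 and had a log2 fold change of −0.21 (limma adjusted p = 0.818).

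**Figure D4:**
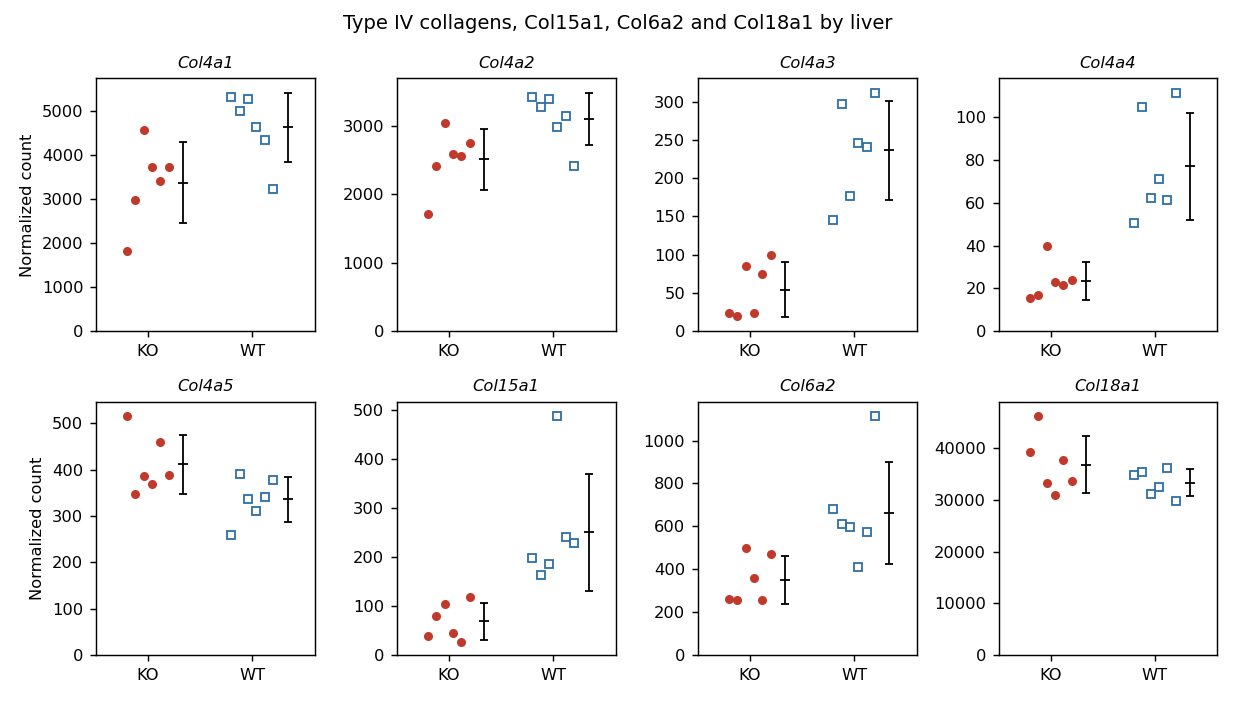
Normalized counts of single livers, KO left and WT right, for 5 type IV chains, Col15a1, Col6a2 and Col18a1, with the mean and SD of each group as a black bar. In the panels of Col4a3, Col4a4 and Col15a1 no KO point reaches the lowest WT point, while in that of Col6a2 KO 3 at 499 and KO 6 at 471 lie above WT 4 at 409.

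The 4 type VI chains all had a fitted value below 0, against 48.2% of all genes, with a median of −0.78. In limma 1 of the 4, Col6a2, fell (edgeR 0, DESeq2 3), against 2.68%, 2.36% and 4.76% of all genes in that order. At an unadjusted limma p under 0.05, 4 of 4 lay lower, against 12.4% of all genes. Type VI filaments are built from Col6a1, Col6a2 and 1 more chain, mostly Col6a3. The sum of the 4 was 1589 ± 424 normalized counts in KO and 2597 ± 722 in WT (SD, n = 6 each), or 61.2% of WT, and 4 KO livers lay below all WT livers. WT 6 held 3900 and the other WT livers 1732 to 2755, and without WT 6 the KO sum was 68.0% of WT, the median log2 fold change was −0.66 and Col6a2 again fell.

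Col6a2 (chromosome 10, 76595762 to 76623630, minus strand) measured 259, 257, 499, 360.05, 258 and 471 normalized counts in KO 1 to KO 6, against 679.6, 609, 595, 409, 573 and 1112 in WT 1 to WT 6. KO 3 and KO 6 lay above WT 4, and the other KO livers lay below all WT livers. The means were 351 ± 112 in KO and 663 ± 238 in WT, a 1.88-fold fall (log2 fold change −0.91, SE 0.235, limma adjusted p = 0.0465). It just passed, and did not pass when any 1 of KO 1, KO 2, KO 4, KO 5, WT 1, WT 2, WT 3 or WT 5 was left out (limma adjusted p up to 0.0948) or by edgeR (adjusted p = 0.0517). Without WT 6, its highest liver, the limma adjusted p was 0.0487.

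Col6a1, which lies near Col6a2 on chromosome 10, measured 491 to 927 (median 718) in KO and 762 to 1704 (median 1029) in WT, with a log2 fold change of −0.64 (SE 0.197, limma adjusted p = 0.0813). Col6a3 measured 337 to 705 (median 524) in KO and 549 to 1070.5 (median 799.9) in WT, with −0.66 (SE 0.194, limma adjusted p = 0.0706). Both overlapped between the groups, with 3 KO livers below all WT livers for Col6a1 and 4 for Col6a3. Col6a5, a chain that can stand in for Col6a3, was low, at 6.66 ± 3.24 in KO and 13.7 ± 5.02 in WT (limma adjusted p = 0.123).

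None of the 11 fibrillar chains passed the test in limma or edgeR, and DESeq2 called 1 lower, Col1a1, against 4.76% of all genes. At an unadjusted limma p under 0.05, 3 were lower and none higher, against 12.4% of all genes lower. The fitted value was below 0 for 8 and above 0 for 3, with a median of −0.36. Without WT 6 it was below 0 for 6 and above 0 for 5, with a median of −0.27 and again 3 at an unadjusted p under 0.05. With WT 6 and KO 2 both left out the split was again 6 to 5, the median −0.22, and 1 gene had an unadjusted p under 0.05. The summed fibrillar counts were 12538 ± 4020 in KO and 18146 ± 3084 in WT (SD, n = 6 each), or 69.1% of WT (70.5% without WT 6), and 2 KO livers, KO 1 and KO 2, lay below all WT livers.

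Col3a1, the chain of type III fibres and the most abundant fibrillar chain, measured 2906, 4395, 9867, 7461, 7350.3 and 7749 normalized counts in KO 1 to KO 6, against 11583, 9090.4, 11151, 6955, 10384 and 9485 in WT 1 to WT 6. KO 1 and KO 2 lay below all WT livers, and the other 4 overlapped with WT. Its log2 fold change was −0.65 (SE 0.254, limma adjusted p = 0.146).

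Col1a1 and Col1a2 are the chains of type I collagen, the main fibre of scar tissue. Col1a1 measured 564, 854, 1673, 1044, 968 and 1433 in KO 1 to KO 6, against 2572, 1702, 1733, 1258, 1873 and 2167 in WT 1 to WT 6, so 4 KO livers lay below all WT livers. Its log2 fold change was −0.84 (SE 0.237, limma adjusted p = 0.0609). It passed when KO 3 or KO 6 was left out (limma adjusted p = 0.0331 and 0.0393) and by DESeq2 (adjusted p = 0.0164). Col1a2 measured 1271 to 3247 (median 2312) in KO and 2211 to 4197 (median 3602) in WT, with a log2 fold change of −0.64 (SE 0.215, limma adjusted p = 0.101).

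Type V chains, which start and limit the width of type I fibrils, did not pass the test. Col5a1 averaged 1183 ± 299.7 in KO and 1405 ± 199 in WT (log2 fold change −0.28, limma adjusted p = 0.347), Col5a2 544 ± 158 in KO and 684 ± 141 in WT (−0.36, adjusted p = 0.295) and Col5a3 265 ± 93.4 in KO and 224 ± 48.3 in WT (0.18, adjusted p = 0.704). Col27a1 (0.12) and Col24a1 (0.31), which form a branch of their own among fibrillar genes, also lay slightly above 0 without passing. Col2a1, Col11a1 and Col11a2 rest on WT 6. Without it the fitted values of Col11a1 and Col11a2 turned to 0.094 and 0.046, on the other side of 0.

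Of the 15 other collagens, 1 fell, Col15a1, and none rose in limma (edgeR 1 and none, DESeq2 4 and none). Of all genes, 2.68% fell in limma, 2.36% by edgeR and 4.76% by DESeq2. At an unadjusted limma p under 0.05, against 12.4% of all genes, 6 of the 15 (40.0%) lay lower and none higher. The fitted value was below 0 for 11 and above 0 for 4, with a median of −0.54 (the same split, a median of −0.47 and again Col15a1 called without WT 6). Col18a1 outweighs the rest, and the sum of the 15 was 39593 ± 5080 normalized counts in KO and 37381 ± 2363 in WT, or 106% of WT (104% without WT 6). Without Col18a1, the other 35 collagen genes of all classes summed to 23250 ± 6317 in KO and 33166 ± 3925 in WT (SD, n = 6 each), or 70.1% of WT (70.8% without WT 6). These sums ran between 13673 and 31285 in KO and between 26011 and 37145 in WT, and 4 KO livers lay below all WT livers.

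Col15a1 (chromosome 4, 47208161 to 47313167, plus strand) and Col18a1 (chromosome 10, 77052178 to 77166548) encode the multiplexins, collagens with long sugar chains that sit at basement membranes. Col15a1 measured 38.3, 80.2, 105, 45.2, 27.3 and 118 normalized counts in KO 1 to KO 6, against 198, 162, 186, 487, 239.97 and 229 in WT 1 to WT 6. All KO livers lay below all WT livers, with WT 4 well above the other WT livers. The means were 68.9 ± 37.5 in KO and 250.3 ± 119 in WT, a 3.82-fold fall (log2 fold change −1.94, SE 0.364, limma adjusted p = 0.0119). Without WT 4 the log2 fold change was −1.72 (limma adjusted p = 0.0267).

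Col18a1 did not pass the test. It measured 39245, 46176, 33295, 31006, 37758 and 33647 normalized counts in KO 1 to KO 6, against 34917, 35459, 31174, 32460.4, 36263 and 29877 in WT 1 to WT 6. KO 1, KO 2 and KO 5 lay above all WT livers. Its log2 fold change was 0.13, with a 95% interval of −0.08 to 0.35 (SE 0.101, limma adjusted p = 0.461). KO 1 and KO 2, the lowest livers for Col3a1, Col1a1 and Col1a2, were the highest for Col18a1.

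Col14a1, Col16a1, Col12a1 and Col20a1 encode collagens that attach to the surface of fibrils, and none of them passed in limma. Col14a1 measured 1189 to 2527 (median 2242) in KO and 2363 to 3490.4 (median 2907) in WT (log2 fold change −0.54, SE 0.179, limma adjusted p = 0.0965). Col16a1 measured 106 to 227 (median 169) in KO and 194 to 357 (median 255) in WT (−0.70, SE 0.203, limma adjusted p = 0.0695). In each, 4 KO livers lay below all WT livers. Col16a1 passed by DESeq2 (adjusted p = 0.0247) and when KO 6 was left out (limma adjusted p = 0.0354). Col12a1, a relative of Col14a1, averaged 82.1 ± 20.6 in KO and 104 ± 39.8 in WT (limma adjusted p = 0.455), and Col20a1 91.2 ± 20.2 in KO and 73.4 ± 28.5 in WT (adjusted p = 0.394).

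The membrane-spanning collagens Col13a1, Col23a1 and Col25a1 had log2 fold changes of 0.48, −0.25 and 0.36, with limma adjusted p-values of 0.372, 0.663 and 0.58. Col13a1 was lowest in WT 6, at 48.6 normalized counts against 106 to 281 in the other livers. Over the 22 alternatives its log2 fold change ran between 0.075 and 0.63. Col28a1, known from nerve, averaged 6.56 ± 5.08 in KO and 22.2 ± 12.9 in WT, a log2 fold change of −1.81 (SE 0.676, limma adjusted p = 0.131) from 41 reads in KO and 133 in WT. Col8a2, the partner chain of Col8a1, averaged 14.8 ± 4.31 in KO and 29.2 ± 14.1 in WT (−0.87, limma adjusted p = 0.095), with 5 KO livers below all WT livers. Col7a1, the anchoring fibril of skin, measured 24.9 ± 6.21 in KO and 32.4 ± 6.34 in WT (adjusted p = 0.289). Col8a1, Col9a1 and Col9a3 had their highest value in WT 6, with limma adjusted p-values of 0.233, 0.555 and 0.204.

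Livers differed within the KO group. For the 31 collagen genes whose mean stays at 10 or more without WT 6, KO 1 was the lowest of all 12 livers in 11 genes and KO 2 in 8. The median departure from the WT mean, on the log2 scale, was taken over all 36 collagen genes, with WT 6 in that mean. It was −1.02 in KO 1 and −0.88 in KO 2, and −0.20, −0.42, −0.52 and −0.28 in KO 3 to KO 6. WT livers ran between −0.41 and 0.35. Without KO 1 (background 1.26%) or without KO 2 (background 1.97%), limma called 3 genes lower, Col4a3, Col4a4 and Col15a1.

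Chains of 1 trimer were also set against each other within each liver, a ratio that does not depend on the scaling between libraries. In all, 4 ratios were tested with an exact two-sided permutation test over the 12 livers, whose smallest possible p is 0.00216, adjusted over the 4. Col6a1 over Col6a2, per exon length, was 3.88 ± 0.536 in KO and 3.20 ± 0.261 in WT (SD, n = 6 each; log2 difference 0.27, exact p = 0.0152, adjusted 0.0606). Col1a1 over Col1a2 was 0.888 ± 0.0768 in KO and 1.02 ± 0.108 in WT (−0.20, exact p = 0.0346, adjusted 0.0693). None of the 4 passed after adjustment with all 12 livers, and Col6a1 over Col6a2 passed when KO 3, KO 6, WT 3 or WT 4 was left out (exact adjusted p = 0.0346 to 0.0404). Col4a1 over Col4a2 was 1.17 ± 0.138 in KO and 1.32 ± 0.0863 in WT (−0.17, exact p = 0.0584, adjusted 0.0779), and Col5a1 over Col5a2 differed by 0.08 on the log2 scale (exact p = 0.632, adjusted 0.632).

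Genes that make, cross-link, cut or sense collagen were counted in 5 lists, 62 tested genes in all. Of these, 2 fell and none rose in limma, against the 2.68% and 1.75% of all genes. At an unadjusted limma p under 0.05, 18 (29.0%) were lower, against 12.4% of all genes, and 3 were higher, against 1500 of all 13569 genes. The same all-gene values stand beside the 5 lists below. No rise was called by edgeR or DESeq2, which called 2 and 5 lower, against 2.36% and 4.76% of all genes by those tests. Their median log2 fold change was −0.24, between that of the collagens and that of all genes.

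Of 18 folding and modification genes, 5 (27.8%) were lower and none higher at an unadjusted limma p under 0.05, against 12.4% of all genes. Serpinh1, the chaperone specific to collagen, was the 1 gene of the 18 that fell after adjustment (median of the list −0.12). It measured 497, 607, 1256, 896, 856 and 880.4 normalized counts in KO 1 to KO 6, against 1654, 1504, 1612, 1592, 1441 and 978 in WT 1 to WT 6. All KO livers but KO 3 lay below all WT livers, and WT 6 was the lowest WT liver. The mean was 832 ± 264 in KO and 1463 ± 250.04 in WT, a 1.81-fold fall (log2 fold change −0.85, SE 0.199, limma adjusted p = 0.0326). It did not pass when any 1 of KO 1, KO 2, KO 4 or WT 1 to WT 5 was left out (limma adjusted p up to 0.0743).

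Of 7 collagen receptors, 4 (57.1%) were lower and none higher at an unadjusted limma p under 0.05, against 12.4% of all genes. After adjustment 1 of the 7, Itga1, a chain of the integrin that binds type IV collagen, fell, with a median of −0.36 for the list. It measured 458 to 599 (median 529.8) in KO and 529.99 to 737 (median 700.5) in WT. The groups overlapped through WT 6, which at 529.99 lay below KO 3, KO 5 and KO 6, and the means were 525 ± 48.5 in KO and 676 ± 77.1 in WT, a 1.29-fold fall (log2 fold change −0.36, SE 0.0899, limma adjusted p = 0.0413). Leaving out any 1 library other than KO 6 or WT 6 took its adjusted p over the threshold (limma, up to 0.0911).

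None of 11 genes for propeptide removal and cross-linking passed in limma, edgeR or DESeq2 (median −0.30; 2 lower and 1 higher at an unadjusted limma p under 0.05). The smallest p-values were those of the lysyl oxidases Loxl4 (63.3 ± 19.6 in KO, 95.2 ± 19.7 in WT, limma adjusted p = 0.0957) and Loxl3 (74.6 ± 23.4 in KO, 105 ± 11.7 in WT, limma adjusted p = 0.0968) and of the propeptidase Adamts3 (36.3 ± 5.15 in KO, 27.0 ± 7.71 in WT, limma adjusted p = 0.194). None of 9 genes of collagen breakdown passed in limma or edgeR (median −0.38; 2 lower and 1 higher at an unadjusted limma p under 0.05), and DESeq2 called 1, Timp2. Timp2, an inhibitor of matrix proteases, averaged 522 ± 98.2 in KO and 740.3 ± 136 in WT (log2 fold change −0.51, limma adjusted p = 0.055). Mmp14, the membrane protease that cuts fibrillar collagen, averaged 1958 ± 258 in KO and 1613 ± 262 in WT (limma adjusted p = 0.155), and Mrc2, an uptake receptor for collagen fragments, 64.3 ± 17.4 in KO and 99.1 ± 30.9 in WT (limma adjusted p = 0.168).

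TGF-beta is the main known inducer of collagen genes, and of 17 genes of its pathway none passed in limma (median −0.096, with 5 lower and 1 higher at an unadjusted p under 0.05). By edgeR none passed either, and DESeq2 called 2 lower, Ltbp2 and Ltbp3. These latent TGF-beta binding proteins, which hold the factor in the matrix, had the smallest p-values. Ltbp2 averaged 75.4 ± 22.3 normalized counts in KO and 121 ± 27.4 in WT (log2 fold change −0.70, limma adjusted p = 0.0822), and Ltbp3 127 ± 22.9 in KO and 181 ± 46.1 in WT (−0.50, limma adjusted p = 0.0904). Tgfb1, the main form of the factor, averaged 396 ± 69.3 in KO and 316 ± 19.9 in WT (0.31, limma adjusted p = 0.114).

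Markers of the cells that make collagen were read beside these values. The summed normalized counts of 18 stellate cell and fibroblast markers ran between 14442 and 23227 in KO and between 19865 and 24644 in WT, with KO 1 lowest. Of the 18, 1 fell, the proteoglycan Lum (497 ± 151 in KO, 799.8 ± 141 in WT, limma adjusted p = 0.044), against 2.68% of all genes. DESeq2 also called Lum, while edgeR and limma without WT 6 did not. Of the 18, 13 had a fitted value below 0, and the median was −0.13. At an unadjusted limma p under 0.05, 4 were lower (22.2%, against 12.4% of all genes) and none higher. Pdgfrb, the stellate cell receptor, averaged 494 ± 90.1 in KO and 494 ± 18.1 in WT (limma adjusted p = 0.937), and Dcn 6826 ± 1289 in KO and 7317 ± 616 in WT (adjusted p = 0.6). The sum of 8 endothelial markers ran between 4873 and 9398 in KO and between 6786 and 10844 in WT, with KO 1 lowest again. Sums of 6 cholangiocyte markers (1248 to 2248 in KO, 1815 to 2524 in WT) and 6 mesothelial markers (134 to 611 in KO, 415 to 814 in WT) overlapped as well. The fitted value was below 0 for 6 of 6 mesothelial markers, with a median log2 fold change of −0.62 against −0.59 for the collagens, and for 5 of the 6 without WT 6, with a median of −0.54. None of the endothelial, cholangiocyte or mesothelial markers was called by limma, edgeR or DESeq2. At an unadjusted limma p under 0.05, 1 of each list was lower (12.5%, 20.0% and 16.7%), against 12.4% of all genes. The part of these markers in the collagen values was not tested.

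Sums of 5 macrophage and leukocyte markers (10547 to 13644 in KO, 9878 to 16635 in WT) and 5 hepatocyte markers (2892598 to 3731443 in KO, 3300889 to 3671635 in WT) overlapped, and hepatocyte markers were the highest of all marker sums in every liver. Among markers of neighbouring tissues, the 8 fat cell markers summed to 771 to 1595 in KO and 571 to 875 in WT. Of them 6 lay under the mean of 10 and 2 were tested. Adrb3 rose (limma adjusted p = 0.00569), against 1.75% of all genes, and the other, with a log2 fold change of 0.17, did not pass. Adipoq was at 53.4 in WT 6, and Lep was at 0 in every liver but WT 6. Of 10 pancreas markers 5 had values, summing to 173 to 468 in KO and 320 to 558 in WT. Of these 3 were tested and 1, Cela1, fell (limma adjusted p = 0.00533), against 2.68% of all genes. Reg1 reached 126 in KO 2. The 6 muscle markers summed to 12.2 to 23.7 in KO and 19.4 to 32.2 in WT, with Myh4 at 0 in every liver but WT 6. Of 6 cartilage and bone markers 3 had values, summing to 288 to 489 in KO and 382 to 767 in WT, with WT 6 the highest. With WT 6 and KO 2 both left out, Col4a3, Col4a4 and Col15a1 still fell (limma adjusted p = 0.0176, 0.00906 and 0.0201) and Col6a2 did not pass (adjusted p = 0.0746), in a fit where 3.75% of all genes fell.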

How the data were processed

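Total RNA of 6 KO and 6 WT livers was sequenced from TruSeq Standard Total RNA libraries, per the labels' protocols. The build mm10 and FastQC, STAR, featureCounts and DESeq2 are named in the submitters' processing notes. The sources used here give neither the annotation nor the strand setting. The deposited signal is normalized counts per gene, divided by 1 factor per library by the authors. All values were whole multiples of a step within each library (tolerance 0.001 reads, 100% of values), so reads were recovered. The authors' deposited comparison table gives log2 fold changes and p-values; its calls, not its fold changes, are used.

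limma 3.58.1 (R 4.3.3) was fitted with a mean-variance trend to log2(normalized count + 1) of 13569 genes with a mean of at least 10, with genotype as the only term, two-sided p-values, Benjamini-Hochberg adjustment and a threshold of 0.05. Fold changes (KO over WT) are differences of mean log2 values on this scale, not ratios of the printed means. The added count pulls the change of low genes toward 0, but the fitted change can still exceed that of other tests. For Col4a3 it was −2.34, against −2.36 with a pseudocount of 0.5, −2.10 by edgeR and −2.11 by DESeq2. Depth was 21769795 to 31296485 reads per library. Replicates were numbered in accession order, and each is a mouse with its own animal number. edgeR 4.0.16 and DESeq2 1.42.0 were run on the recovered reads. The fit was tested on simulated data. Further settings were a pseudocount of 0.5 or 10, a minimum of 50 or no filter, equal totals, equal upper quartiles, runs of animal numbers (a gap of 10 starts a run) as a block, and leaving out libraries. Lengths and positions come from GENCODE M21, promoters from RefSeq GRCm38.p6.

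The members and lists were chosen with earlier results of these data known. Every member is named with its class; statistics in full are given for called members and the 3 highest of each class, and of each partner list for called genes or else the 3 smallest p-values. Others were named after their values were seen. Of the list symbols, 6 were found under an older symbol. Of the TGF-beta list, 1 gene is not reported here.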

Additional observations from a re-analysis of the deposited data

Results flagged for a closer look

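In 72 groups of 6 livers (36 genes in KO and in WT), the highest or lowest liver lay far from the rest of its group by Dixon's ratio in 9, of which 6 concerned WT 6. The cutoff flags about 1 in 20 groups when values are normal and groups independent. Here the genes share livers and some lie near 0, so the 9 cannot be set against that rate.

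In WT 6, Col2a1 was 769 normalized counts (other WT livers 0 to 2.35), Col11a1 223 (0.975 to 4.70), Col9a1 148 (0 to 3.90), Col11a2 149 (22.9 to 44.7), Col8a1 659.6 (25.5 to 49.8) and Col25a1 35.3 (7.77 to 12.7). Col15a1 was 487 in WT 4 and 162 to 239.97 in the other WT livers. Col7a1 was 13.5 in KO 4 and 22.8 to 30.0 in the other KO livers. Col2a1 was 0.913 in KO 6, which is 1 read, and 0 in the other KO livers.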

How the results depend on the processing

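Over 22 alternatives, Col4a3, Col4a4 and Col15a1 fell in all of them (adjusted p up to 0.0328, 0.0234 and 0.0358). Col6a2 did not pass in 14 (adjusted p up to 0.164), Serpinh1 in 9 (up to 0.116) and Itga1 in 12 (up to 0.189). The count of collagen genes called lower was 10 with DESeq2 and 3 to 7 when 1 library was left out (7 without KO 6, 6 without KO 3), and 3 or 4 otherwise, that of genes called higher was 0 throughout, and the median log2 fold change ran between −0.67 and −0.41. Calls over all 13569 genes moved too. With 1 library left out, 146 (without KO 4) to 562 (without KO 6) were lower, with 368 without KO 3. Between 74 (without WT 3) and 401 (without WT 6) were higher. DESeq2 called 726 of 15243 lower. The 31 collagens that reach 10 also without WT 6, a choice made after seeing the data, gave 4, 0 and −0.49. Partner genes called lower were 1 with equal totals, 5 with DESeq2, 0 with the run block, 4 with WT 6 and KO 2 both left out, and 0 to 5 with 1 library left out. Of all 13569 genes, 344 were lower with equal totals, 97 with the run block and 509 with WT 6 and KO 2 both left out. Partner genes called higher were 0 throughout.

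Signs turned for Col11a2 (0.046 without WT 6, 0.031 without WT 6 and KO 2, lowest −0.48 with 1 library left out), Col11a1 (0.094 and 0.24, lowest −1.27) and Col4a6 (0.077 without WT 6, lowest −0.39). With 1 library left out, the log2 difference of the chain ratios ran between −0.25 and −0.16 for Col1a1 over Col1a2, −0.21 and −0.11 for Col4a1 over Col4a2, −0.029 (without WT 6) and 0.13 for Col5a1 over Col5a2, and 0.22 and 0.32 for Col6a1 over Col6a2. By the exact test, adjusted over the 4 ratios, 3 passed without KO 3 (Col1a1 over Col1a2, Col4a1 over Col4a2 and Col6a1 over Col6a2, each 0.0404), 2 without WT 3 (Col1a1 over Col1a2 0.0173, Col6a1 over Col6a2 0.0346), and Col6a1 over Col6a2 without KO 6 or WT 4 (0.0346 each). The cause of these moves was not tested.

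No paired analysis was possible because the labels give no shared replicate numbers. With runs of animal numbers as a block, 97 of 13569 genes (0.715%) fell, among them 3 collagens. The run of WT 2 and WT 3 holds no KO liver, so the block fit in effect compares KO with fewer WT livers. Scaling by equal totals or upper quartiles moved the median of all genes by less than 0.1 on the log2 scale. Depth limits genes near 10 normalized counts, such as Col4a6 with 59 reads in KO and 66 in WT.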
